A study of Mus musculus with 2 samples.

Results

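The genes described here carry glucose into the cell, break it down to pyruvate and lactate, move lactate across membranes, and build or break down glycogen. They were chosen by gene symbol, as a fixed list of 38 genes that also holds Hif1a, out of 23950 symbols in the deposited tables. All 38 had an entry, and all 38 were at 1 FPKM or more in both libraries. FPKM counts sequenced fragments per transcript length and per total of fragments, so it allows levels of different genes to be compared. RNA-seq was done on whole optic nerve of mice on postnatal day 12, of mixed strain. The control library came from Hdac3 f/+; Olig1-cre mice and the other, Hdac3 cKO, from Hdac3 f/f; Olig1-cre mice. Both groups carry the Olig1-cre recombinase, which acts where its Olig1 driver is active, and the control mice also carry 1 Hdac3 allele that it can delete. No source used here says how many mice each library pooled.

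Glycolysis turns glucose into pyruvate. Pyruvate either enters mitochondria through pyruvate dehydrogenase or is reduced to lactate by lactate dehydrogenase, and lactate leaves or enters cells through monocarboxylate transporters. In white matter, astrocytes are the main store of glycogen, and both astrocytes and oligodendrocytes are known to pass lactate to axons. Many steps are served by several isozymes, and some of these are typical of astrocytes (Aldoc), of neurons (Slc2a3, Eno2) or of muscle (Pygm, Pfkm, Eno3, Pgam2).

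Each group has 1 library and hence no replicate check. No p-value is given, and each difference is one between these libraries and not between the genotypes. Across the 38 genes, glycogen phosphorylases, aldolase C, lactate dehydrogenase B and the lactate transporter Slc16a1 stood higher in the cKO library, while phosphoglycerate kinase 1 and the transporter Slc16a7 stood lower. The log2 difference (cKO over control, after adding 1 to each FPKM) was above 0 for 30 of 38 genes (78.9%), against 61.4% of the 14154 genes tested. Its median was 0.36, with a middle 50% of 0.05 to 0.61, against 0.12 over all tested genes. One gene, Pygm, was at least 2-fold higher with deposited intervals that do not overlap, 2.63% of the list against 4.73% of all tested genes. None was lower by that rule, against 4.51% of all tested genes. With the fold lowered to 1.5, 10 genes were higher (26.3%, against 16.0% of all tested genes) and 1 was lower (8.85% of all tested genes). Under the 2-fold rule the share of called genes was under the background, and under the 1.5-fold rule the share of higher genes was above it. Counting any difference with separate intervals, 25 genes were higher (65.8%, against 38.4% of all tested genes) and 6 lower (15.8%, against 22.5%).

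The direction of a small difference depends on how the libraries are scaled. The median difference of the 38 genes was 0.29 with equal upper quartiles and 0.24 when centred on the median of all genes, which is a shift of 0.12. With equal sums it was 0.01, the median of all tested genes was -0.18, and 20 of the 38 genes were above 0. A total of 28 genes kept the sign of their difference under all these scalings, and 10 changed sign under scaling to the same sum, namely Hk1, Gpi1, Pfkfb2, Pgam1, Eno1, Eno2, Eno3, Gys1, Gbe1 and Pgm1. The list is made of rather abundant genes, with a median FPKM of 20.4 in control and 23.6 in cKO, where all tested genes had 8.44 and 9.34. Among the 10217 tested genes at 5 FPKM or more in at least 1 library, 60.7% were above 0 and 41.5% were higher with separate intervals.

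**Figure D1:**
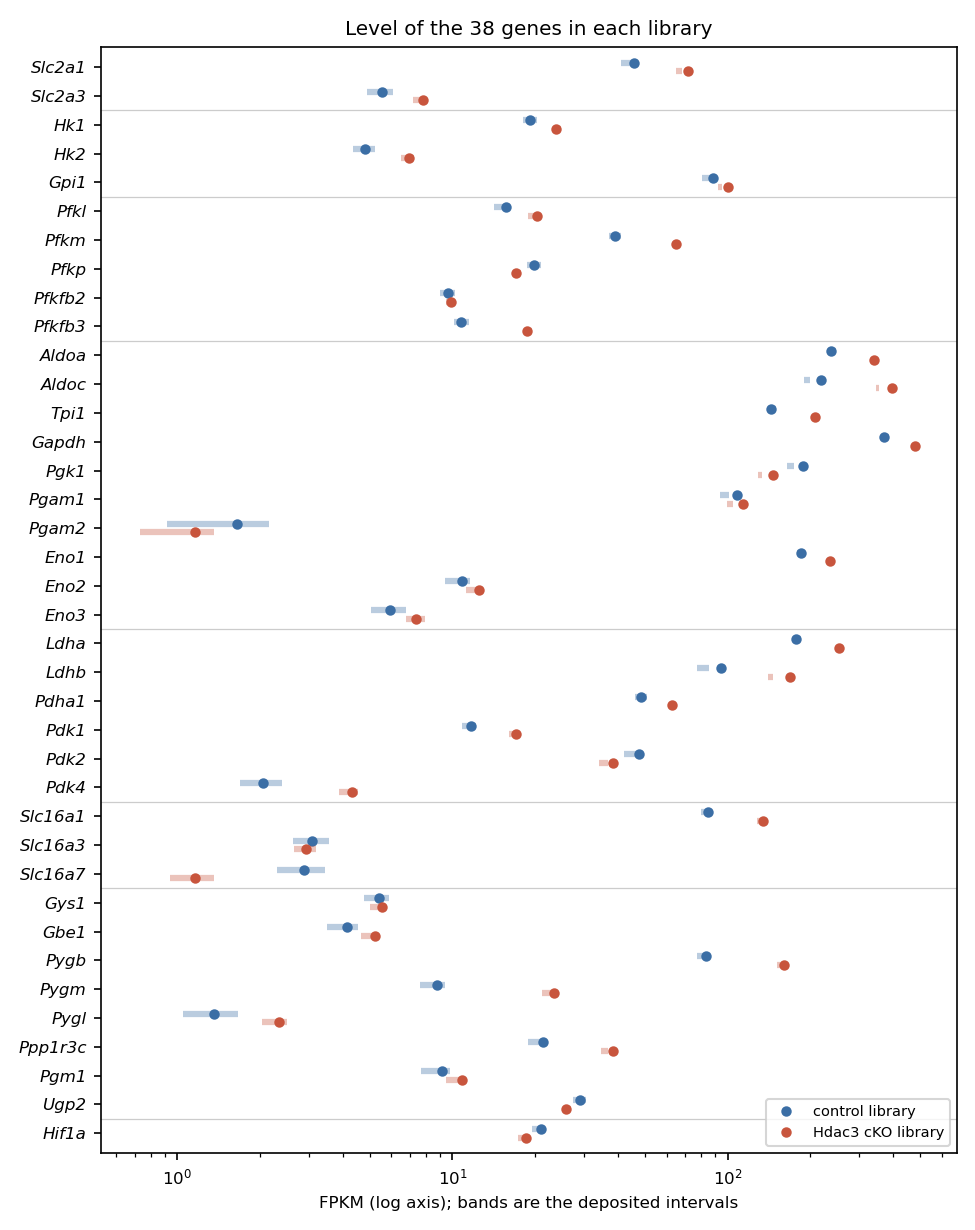
FPKM of each of the 38 genes (log axis) in the control library (blue) and the Hdac3 cKO library (red), with bands for the deposited intervals and lines between roles. Levels run from 1.36 FPKM (Pygl) to 372 (Gapdh) in control, and several points lie outside their own band.

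The low values of the tables give the relative depth. Of 1404 entries with 1 start site group and FPKM under 0.1 but above 0 in both libraries, 605 (43.1%) had a cKO-to-control ratio within 0.2% of a whole multiple of 0.316, the most common ratio. A single fragment thus added 0.316 times as much FPKM in cKO as in control, so the total behind the cKO values was 3.17 times as large; absolute counts remain unknown. Among the 38 genes, 9 control values and 16 cKO values lie outside their own deposited interval, all above it except those of Gapdh and Ldha in cKO, so the intervals are only a rough guide to precision and do not hold the variation between animals. Hdac3, the targeted gene, was at 36.4 FPKM in the control library and 38.04 in the cKO library (log2 0.06). A level of the whole gene cannot tell a transcript with the deleted exons from one without, so the labels were not checked by it. In every comparison, cKO means the library with that label.

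Many genes of glycolysis respond to low oxygen through hypoxia-inducible factors, which bind DNA at a core that can read ACGTG, and 6 promoters of the list are shown with these letters marked. They were chosen after the values were seen. They belong to 3 glycogen genes that stood higher in the cKO library, to the pair of lactate dehydrogenases, and to Pgk1, which stood lower. Each line gives the 250 bases before the start site from RefSeq (build GRCm38.p6), 5′ to 3′ on the gene's strand. Capitals mark ACGTG or its reverse complement CACGT, and CACGTG holds both in overlap.
Pygm, chr19:6384158-6384407, plus strand: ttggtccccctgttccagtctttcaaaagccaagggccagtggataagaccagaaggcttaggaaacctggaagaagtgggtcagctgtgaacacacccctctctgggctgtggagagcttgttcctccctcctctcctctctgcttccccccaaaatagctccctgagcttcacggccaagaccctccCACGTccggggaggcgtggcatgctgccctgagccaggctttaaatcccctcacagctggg
Pygb, chr2:150786546-150786795, plus strand: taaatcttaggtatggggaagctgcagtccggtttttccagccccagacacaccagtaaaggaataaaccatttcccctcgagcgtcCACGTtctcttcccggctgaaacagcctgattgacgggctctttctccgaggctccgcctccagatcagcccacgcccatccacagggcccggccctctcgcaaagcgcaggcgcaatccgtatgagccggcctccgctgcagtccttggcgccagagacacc
Ppp1r3c, chr19:36736605-36736854, minus strand: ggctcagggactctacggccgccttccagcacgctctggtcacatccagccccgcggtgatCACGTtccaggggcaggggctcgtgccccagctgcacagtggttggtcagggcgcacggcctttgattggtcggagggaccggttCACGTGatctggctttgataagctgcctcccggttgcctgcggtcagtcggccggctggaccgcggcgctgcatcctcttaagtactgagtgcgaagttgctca
Ldha, chr7:46845554-46845803, plus strand: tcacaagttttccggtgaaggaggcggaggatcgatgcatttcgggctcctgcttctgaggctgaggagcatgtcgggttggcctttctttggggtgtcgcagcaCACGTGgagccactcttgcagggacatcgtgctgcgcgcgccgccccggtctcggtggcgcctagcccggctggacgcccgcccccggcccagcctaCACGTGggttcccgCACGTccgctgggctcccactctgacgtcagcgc
Ldhb, chr6:142507958-142508207, minus strand: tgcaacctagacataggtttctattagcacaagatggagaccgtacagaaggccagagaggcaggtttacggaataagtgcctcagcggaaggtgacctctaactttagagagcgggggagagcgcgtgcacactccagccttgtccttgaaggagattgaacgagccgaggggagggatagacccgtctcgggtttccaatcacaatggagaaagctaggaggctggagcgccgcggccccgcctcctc
Pgk1, chrX:106186850-106187099, plus strand: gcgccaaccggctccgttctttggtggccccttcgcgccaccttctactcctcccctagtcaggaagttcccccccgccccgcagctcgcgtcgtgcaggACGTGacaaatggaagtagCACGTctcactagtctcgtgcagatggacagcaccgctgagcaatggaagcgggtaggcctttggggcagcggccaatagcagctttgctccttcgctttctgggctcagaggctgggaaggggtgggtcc
Ldha is shown by the first of its 2 windows and the others by their single window. The motif search covered both strands and was run on the 36 list genes that matched the promoter table, each by the first window listed. It found ACGTG in 18 of the 36, against 16.6% of 27025 genes with a window of that length. Windows of the list were richer in G and C, with a median of 60.2% against 52.0% over all genes. Among 6203 genes whose GC content lay in the middle 50% of the list's, 21.2% held the motif. The 18 of 36 covers the whole list, so these shares are not matched for GC content. Every list gene above that band held the motif, and below it only Pfkm did. The 18 list genes with the motif had a median log2 difference of 0.48 (13 above 0, range -0.36 to 1.31), and the 18 without it 0.35 (16 above 0, range -0.30 to 0.86). The motif was thus seen in genes on both sides of 0, and a match of letters is not evidence of binding.

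Glucose uptake genes were higher in the cKO library. Slc2a1, the glucose transporter GLUT1 of endothelium and glia, was at 45.8 FPKM in control against 71.7 in cKO, a log2 difference of 0.63. Its interval bounds give 0.51 to 0.72. Slc2a3, the transporter GLUT3 typical of neurons, was at 5.54 and 7.81 FPKM (log2 0.43). Slc2a1 made up 89.2% of the FPKM of the pair in control and 90.2% in cKO, so the balance between them was nearly the same. Endothelial markers lay above 0 for 12 of 12 genes, beside 61.4% of all tested genes. They had a median of 0.36 and a summed level of 200.2 FPKM in control against 265 in cKO. The most abundant of them were Cldn5, at 64.1 and 68.5 FPKM, and Cdh5, at 20.9 and 38.5. Of 4 red blood cell genes, 3 lay above 0 and 2 were higher by the 2-fold rule, beside 4.73% of all tested genes. These were Hba-a1 at 40.9 and 143 FPKM and Hbb-b1 at 43.8 and 121. Hba-a2, a near-identical copy of Hba-a1, was at 5.30 and 3.46 FPKM (log2 -0.50). Whether these cells have a part in the Slc2a1 difference was not tested. In whole tissue, a change in the number of cells of a type and a change in RNA per cell cannot be told apart, here or for any gene below.

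The first enzymes of the pathway lay above 0 on the deposited scale, and with equal sums Hk1 and Gpi1 lay below it. Hk1, the main hexokinase of brain, was at 19.1 FPKM in control against 23.8 in cKO (log2 0.30). Hk2, the inducible hexokinase, was at 4.80 and 6.97 FPKM (log2 0.46), with separate intervals. Hk1 kept the larger share of hexokinase FPKM, 76.7% in control and 73.3% in cKO, and the ranges from the interval bounds overlap. Gpi1, which turns glucose 6-phosphate into fructose 6-phosphate, was at 88.3 and 100.05 FPKM (log2 0.18).

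Phosphofructokinase, the committed step, differed by isozyme. Pfkm, the muscle type that brain also expresses, was at 38.9 FPKM in control against 65.1 in cKO (log2 0.73). Pfkl, the liver type, was at 15.6 and 20.3 FPKM (log2 0.36). Pfkp, the platelet type, was at 19.8 and 17.0 FPKM (log2 -0.21). The share of Pfkm in the FPKM of the 3 genes was 52.3% in control and 63.6% in cKO, and that of Pfkp 26.7% and 16.6%. For both, the ranges that the interval bounds allow do not overlap, which holds under any scaling between libraries because a share is taken within a library.

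PFKFB enzymes make and break fructose 2,6-bisphosphate, the activator of phosphofructokinase. Pfkfb3, the form with the strongest kinase activity, was at 10.8 FPKM in control against 18.7 in cKO (log2 0.74). Pfkfb2 was at 9.64 and 9.91 FPKM (log2 0.04), with overlapping intervals. Beside them, Pfkfb4 was at 9.70 and 7.23 FPKM (log2 -0.38). In control the 3 genes stood at nearly equal levels, with Pfkfb3 at 35.2% of the family, and in cKO Pfkfb3 held 50.9%.

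Among the enzymes from aldolase to enolase, the largest difference was that of Aldoc (mm9 chromosome 11, 78137700 to 78140262). This aldolase, typical of astrocytes, was at 218 FPKM in control against 396 in cKO (log2 0.86). Aldoa, the form found in most tissues, was at 239 and 339.8 FPKM (log2 0.51). Aldoa was thus the more abundant form in control and Aldoc in cKO, and the ratio of Aldoc to Aldoa went from 0.915 to 1.17. The share of Aldoc in aldolase FPKM was 47.8% and 53.8%, although the Aldoc values lie above their own intervals (189 to 199 in control and 346 to 354 in cKO). At the midpoints of the intervals the share was 44.6% in control and 50.4% in cKO.

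Tpi1, which interconverts the triose phosphates, was at 144 and 209 FPKM (log2 0.53). Gapdh, the most abundant gene of the list in both libraries, was at 372 and 479 FPKM (log2 0.37). Pgk1, the first step that yields ATP, was at 188 FPKM in control against 146 in cKO (log2 -0.36), so neighbouring steps lay on opposite sides of 0. Pgam1, the phosphoglycerate mutase of brain, was at 108 and 114 FPKM (log2 0.08), with overlapping intervals. Mouse genomes carry many processed copies of Gapdh, Pgk1, Ldha and Pgam1, and no source used here says how reads that fit several places were counted, so these levels are uncertain to that extent.

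Enolase shows this limit directly. Eno1, the general enolase, was at 184 FPKM in control against 235 in cKO (log2 0.35). Eno1b, a near-identical copy, had an entry of its own at 96.9 and 135 FPKM and a second entry within the Eno1 locus at 23.4 and 0.00532 FPKM, marked as too few data. Summed over these entries, including the one with too few data, the levels were 304 and 370.03 FPKM (log2 0.28). Leaving that entry out would lower the control sum and raise the difference. Eno2, the neuronal enolase, was at 10.8 and 12.5 FPKM (log2 0.19), and its intervals overlap. Neuron markers did not move together beside it: 7 of 9 lay above 0, with Nefl at 11.6 and 29.5 FPKM and Gap43 at 49.9 and 25.8.

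Isozymes typical of skeletal muscle were low apart from Pfkm and Pygm. Eno3 was at 5.91 and 7.35 FPKM (log2 0.27). Pgam2 was at 1.65 and 1.16 FPKM (log2 -0.30), with overlapping intervals. Of 16 muscle markers, 7 reached 1 FPKM in at least 1 library, and 5 of these lay above 0, with a median of 0.37. Those under 1 FPKM in both libraries were all lower in cKO except Atp2a1, at 0.492 and 0.576 FPKM. The 16 summed to 47.9 FPKM in control against 30.6 in cKO, but without Tnni1 the other 15 summed to 22.5 and 27.9 FPKM. The most abundant were Tnni1, at 25.5 and 2.67 FPKM, and Acta1, at 10.5 and 14.3. Tnnt3 was at 2.75 and 3.86 FPKM, Tnnt1 at 1.58 and 2.67, and Casq1 at 1.21 and 2.47. The lowest included Ckm, at 0.329 and 0.0283 FPKM, and Myh4, at 0.215 and 0.00899.

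**Figure D2:**
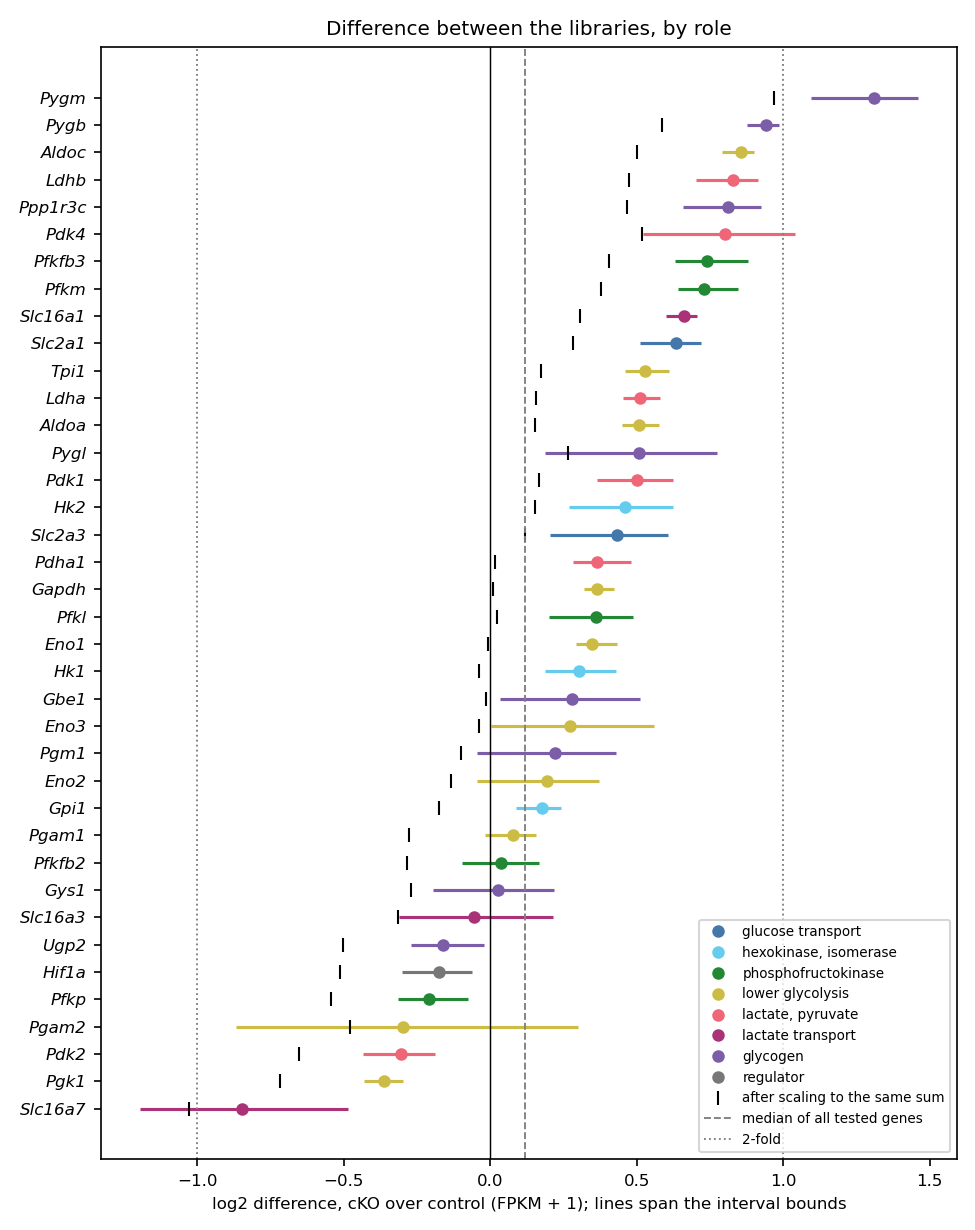
Log2 difference (cKO over control, FPKM plus 1) of each gene, ordered by size and coloured by role, with lines spanning what the interval bounds allow and ticks for scaling to the same sum. Pygm at 1.31 lies past 2-fold on the deposited scale and just short of it (0.97) at the tick, and Slc16a7 at -0.85 is the lowest.

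Lactate dehydrogenase and the enzymes that gate pyruvate also differed by isozyme. Ldhb, whose tetramers favour lactate use, was at 94.5 FPKM in control against 169 in cKO (log2 0.83). Ldha, whose tetramers favour lactate formation, was at 177 and 253 FPKM (log2 0.51). Both lay higher in cKO, and the ratio of Ldha to Ldhb went from 1.88 to 1.502. Ldhb made up 34.8% of the family in control and 40.0% in cKO, or 31.2% and 35.8% at the midpoints of the intervals, which its values exceed. The promoters of the pair, shown above, differ in the motif: Ldha holds 5 matches counted over both strands and Ldhb 0.

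Pdha1, the catalytic subunit of pyruvate dehydrogenase, was at 48.4 and 62.7 FPKM (log2 0.37). Its inhibitory kinases went different ways. Pdk2, the most abundant kinase, was at 47.5 FPKM in control against 38.2 in cKO (log2 -0.30). Pdk1, a target of hypoxia-inducible factor, was at 11.7 and 17.0 FPKM (log2 0.50). Pdk4, which responds to fasting and fatty acids, was at 2.04 and 4.30 FPKM (log2 0.80), and it was at least 2-fold higher by the interval rule with a pseudocount of 0.1 (log2 1.04). Pdk3 was at 19.0 and 12.1 FPKM (log2 -0.61). Pdk2 made up 59.2% of kinase FPKM in control and 53.4% in cKO, Pdk1 14.6% and 23.7%, and Pdk4 2.54% and 6.01%, while the sum over the 4 kinases was 80.3 and 71.6 FPKM.

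Lactate transporters lay on both sides of 0. Slc16a1, the transporter MCT1 of oligodendrocytes, endothelium and some astrocytes, was at 85.02 FPKM in control against 135 in cKO (log2 0.66). Slc16a7 (mm9 chromosome 10, 124664541 to 124765591), the high-affinity transporter MCT2 typical of neurons, was at 2.88 FPKM in control, with an interval of 2.31 to 3.44, and at 1.16 in cKO, with an interval of 0.941 to 1.36. Its log2 difference of -0.85 depends on the setting, as the gene is low. It was -1.24 with a pseudocount of 0.1 and -1.03 after scaling to the same sum, and in both settings it met the 2-fold rule. With equal upper quartiles it was -0.89. Neither there nor with a pseudocount of 5 did it meet the rule. Slc16a3, the transporter MCT4 typical of astrocytes, was at 3.08 and 2.93 FPKM (log2 -0.06), with overlapping intervals. Slc16a1 was already 93.4% of the FPKM of the 3 genes in control and was 97.1% in cKO, while Slc16a7 went from 3.16% to 0.832%. Slc16a1 thus lay higher in the library in which the oligodendrocyte markers, described further on, were lower. Bsg, the chaperone that brings MCT1 and MCT4 to the cell surface, was at 319 and 577 FPKM (log2 0.85).

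**Figure D3:**
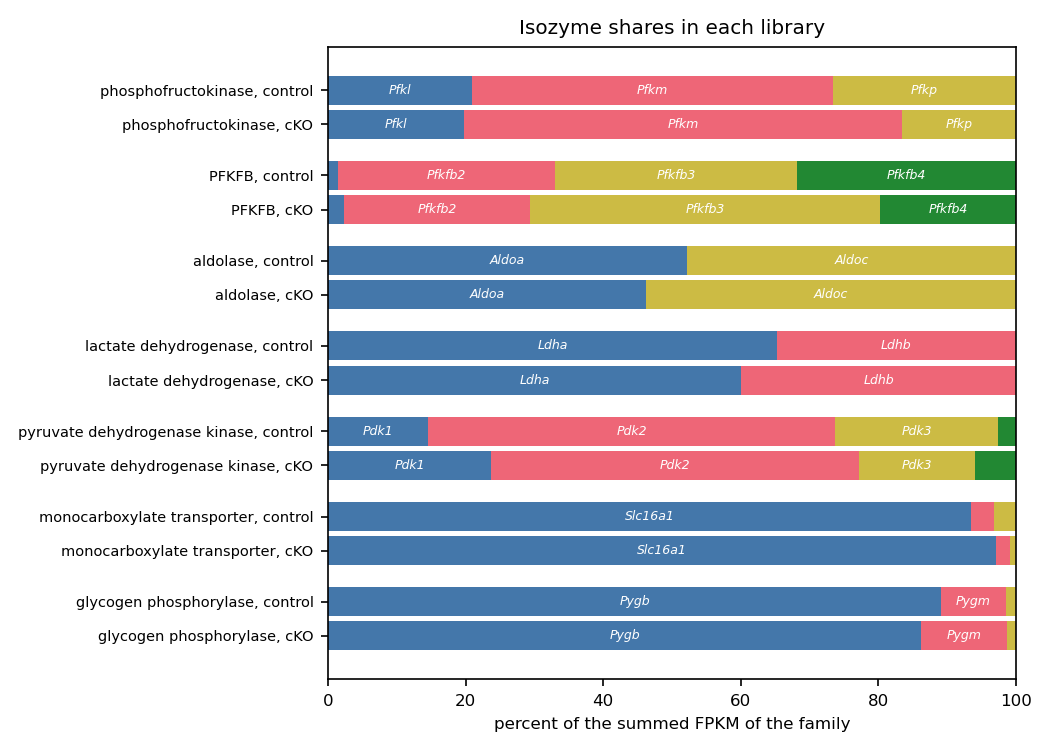
Share of each isozyme in the summed FPKM of its family (percent) in the control and cKO libraries, for families that differed in composition. Bars without a printed name are shares of 7% or less, and the largest shift is that of Pfkfb3, from 35.2% to 50.9%.

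Among glycogen genes, the phosphorylases Pygm and Pygb, which release glucose units from glycogen, had the largest differences. Pygm (mm9 chromosome 19, 6384429 to 6398459), the muscle form of glycogen phosphorylase that astrocytes also express, was at 8.81 FPKM in control, with an interval of 7.65 to 9.38, and at 23.3 in cKO, with an interval of 21.2 to 22.8. The log2 difference was 1.31 and the interval bounds give 1.09 to 1.46, and the difference was 0.97 with equal sums. Pygb, the brain form, was at 83.3 FPKM in control against 161 in cKO (log2 0.94), a ratio just under 2. Pygl, the liver form, was at 1.36 and 2.35 FPKM (log2 0.51). The phosphorylases summed to 93.5 FPKM in control against 186 in cKO, the largest ratio among the enzyme families and transporters summed here, and Pygb remained 89.1% and 86.2% of that sum. Pygm went from 9.43% to 12.5% of it. Beside the Pygm value stand the muscle markers given above. Of these, 5 of the 7 tested lay above 0, and those under 1 FPKM were lower in cKO except Atp2a1. The part of muscle in the Pygm value was not tested.

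On the side of synthesis, Gys1, glycogen synthase, was at 5.42 FPKM in control against 5.54 in cKO (log2 0.03), with overlapping intervals. Gbe1, the branching enzyme, was at 4.12 and 5.22 FPKM (log2 0.28). Ugp2, which makes UDP-glucose, was at 29.1 and 25.9 FPKM (log2 -0.16). These genes thus lay between -0.16 and 0.28, below each of the phosphorylases. Ppp1r3c, the subunit that brings a phosphatase to glycogen and so favours synthesis, was the exception within the list. It was at 21.3 FPKM in control against 38.2 in cKO (log2 0.81). Outside the list, Gyg, glycogenin, was at 31.1 and 21.3 FPKM (log2 -0.53), with separate intervals that both values exceed.

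The symbol Pgm1 needs care. In the files it stands for a gene on chromosome 5 that RefSeq in build GRCm38.p6 names Pgm2, at 9.16 FPKM in control against 10.9 in cKO (log2 0.22). The phosphoglucomutase now named Pgm1 lies on chromosome 4 and is listed under Pgm2 in the files, at 16.2 and 21.0 FPKM. Both stood higher in cKO on the deposited scale, with overlapping intervals for the file symbol Pgm1 and separate ones for the file symbol Pgm2.

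Hif1a, the oxygen-regulated factor that drives many of these genes, was at 21.0 FPKM in control against 18.5 in cKO (log2 -0.17). HIF1 is regulated mainly at the protein level, which these data do not measure. Of 20 tested HIF1 targets outside the list, 17 lay above 0, with a median of 0.30. Of these, 3 were higher by the 2-fold rule, beside 4.73% of all tested genes, and 0 lower: P4ha2, a collagen hydroxylase, at 17.3 and 38.9 FPKM, Adm, the peptide adrenomedullin, at 4.37 and 12.6, and Egln3, an oxygen-sensing hydroxylase, at 7.41 and 16.1. The most abundant targets, Ndrg1 and Ddit4, were at 92.2 and 134 FPKM (log2 0.53) and at 74.9 and 71.9 (log2 -0.06). After scaling to the same sum the median of these targets was -0.04 and 1 was higher by the rule, and with a pseudocount of 5 the count was 0.

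A further list held other genes of glycolysis and pyruvate use and further members of the glucose and monocarboxylate transporter families. Its 33 tested genes had a median of 0.09, with 4 higher and 2 lower, beside 4.73% and 4.51% of all tested genes. After scaling to the same sum the median was -0.23, with 0 higher and 3 lower, and with a pseudocount of 5 there were 1 higher and 0 lower. Pcx, the pyruvate carboxylase typical of astrocytes, was at 23.3 FPKM in control against 53.1 in cKO (log2 1.15). Slc2a12, a glucose transporter, was at 9.88 and 23.7 FPKM (log2 1.18), and Slc2a6, another of the family, at 2.91 and 0.829 (log2 -1.09). Of the monocarboxylate transporter family, Slc16a9 was at 5.20 and 14.3 FPKM (log2 1.30) and Slc16a12 at 4.54 and 10.1 (log2 1.002). Slc16a8, the transporter MCT3 of retinal pigment epithelium, was at 3.29 and 0.764 FPKM (log2 -1.28). Pkm, pyruvate kinase, was at 258 and 314 FPKM (log2 0.28). On the deposited scale the monocarboxylate transporter family therefore had called members on both sides, beside the 3 transporters of the list. What each of these carries was not measured.

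Of 21 other glycogen genes tested, 1 was higher and 0 lower, beside 4.73% and 4.51% of all tested genes. Their median was 0.14, close to the 0.12 of all tested genes. The count of higher genes was 0 with equal sums or a pseudocount of 5. Ppp1r3b, a glycogen-targeting subunit like Ppp1r3c, was at 3.36 and 8.34 FPKM (log2 1.10). Stbd1, which tethers glycogen to membranes, was at 2.40 and 5.19 FPKM (log2 0.86). Gaa, the lysosomal enzyme that breaks down glycogen, was at 29.0 and 45.2 FPKM (log2 0.62). Gsk3a, a kinase that inhibits glycogen synthase, was at 28.1 and 25.7 FPKM (log2 -0.12).

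Branches that leave glycolysis had medians below 0. Of 8 genes of the pentose phosphate pathway, 5 were below 0, with a median of -0.15. Taldo1, transaldolase, was lower by the 2-fold rule, at 266 FPKM in control against 96.5 in cKO (log2 -1.45), although both values lie above their own intervals. Tkt, transketolase, was at 72.8 and 47.0 FPKM (log2 -0.62). All 5 genes of serine synthesis and its use were below 0, with a median of -0.22 and 0 called, and Psat1 was at 145 and 103 FPKM (log2 -0.49) and Shmt1 at 3.19 and 2.15 (log2 -0.41). Phgdh, the entry enzyme of serine synthesis that astrocytes express, was at 114 and 103 FPKM (log2 -0.15).

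Markers of cell types were read beside the list. Their counts by the 2-fold rule stand beside 4.73% higher and 4.51% lower among all tested genes. All 14 oligodendrocyte markers read here were lower by the 2-fold rule, with log2 differences from -2.99 to -2.20, and none of the 38 genes lay in that range. They summed to 23434 FPKM in control against 3320.35 in cKO, with Mbp and Cnp the most abundant. Of 17 tested astrocyte markers, 16 lay above 0 and 5 were higher by the rule, with a median of 0.69 and a middle 50% of 0.53 to 1.15. Without Gfap, which is listed at 0 in cKO with a status for too many fragments, they summed to 2312 FPKM in control against 3996 in cKO, led by Clu and Atp1b2. A total of 9 of the 38 genes fell in that middle 50%, namely Slc2a1, Pfkm, Pfkfb3, Aldoc, Ldhb, Pdk4, Slc16a1, Pygb and Ppp1r3c. Pygm lay above it and the other 28 below it. The middle 50% of the mural cell markers, described below, was 0.59 to 0.998 and held the same 9 genes. Those of the microglia markers (0.05 to 0.72) and the endothelial markers (0.21 to 0.68) held Slc2a1 and Slc16a1 of the 9. Falling in the astrocyte range is thus not particular to that cell type.

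Markers of other cell types differed as well. Of 9 meningeal fibroblast markers, 8 were higher by the rule, with a median of 1.29 and a summed level of 1882 FPKM in control against 4427 in cKO, led by Igf2 and Col1a2. The 8 mural cell markers had a median of 0.85 (2 higher, summed level 264 and 485 FPKM, led by Vtn and Rgs5). The 10 microglia markers had a median of 0.54 (0 called, summed level 318 and 503 FPKM, led by C1qb and C1qc). The 7 markers of oligodendrocyte precursors had a median of -0.46 (3 lower, summed level 198 and 169 FPKM, led by Ptprz1 and Matn4). Rom1, at 4.55 and 9.34 FPKM, was the 1 photoreceptor marker of 7 to reach 1 FPKM. After scaling to the same sum the counts of higher genes were 3 for meningeal fibroblast markers, 0 for mural and 2 for astrocyte markers, and the medians were 0.94, 0.54 and 0.34. The part of any of these cell types in the differences of the 38 genes was not tested.

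**Figure D4:**
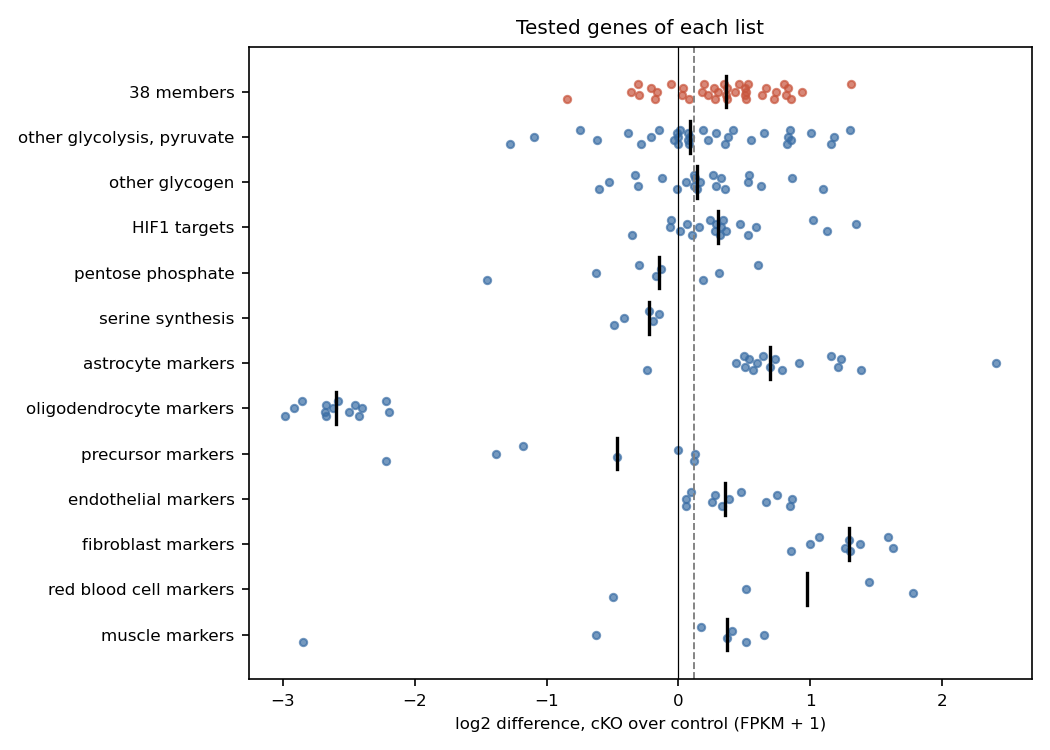
Log2 difference (cKO over control, FPKM plus 1) of every tested gene of each list drawn. A black bar marks the list median and a dashed line the median of all tested genes (0.12). The mural, microglia, neuron and photoreceptor lists are not drawn. The 38 genes (red) and the endothelial markers each have a median of 0.36. The oligodendrocyte markers are at -2.60, the astrocyte markers at 0.69 and the fibroblast markers at 1.29.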

How the data were processed

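RNA of whole optic nerve was measured in 1 control and 1 Hdac3 cKO library. The authors deposited FPKM per gene with interval bounds, on the FPKM scale, and a status, per the file headers. CASAVA, TopHat, Cufflinks and the mm9 build appear in the submitters' processing notes. No source used here gives versions, annotation, read handling or read numbers. The kit named in the labels' protocols is the Illumina TruSeq RNA kit, and no use of strand is stated, so overlapping genes on opposite strands are not separated; 8 of the 38 genes overlap another entry.

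Where a symbol had several entries, the one with the larger FPKM sum was used. Tested genes had an OK status in each library and reached 1 FPKM in either library. The difference was log2 of FPKM plus a pseudocount of 1, cKO over control, on the deposited scale. A gene was called at 2-fold or more with intervals that do not overlap. No test was possible with 1 library per group. The calling step was tested on simulated data, for genes at 5 FPKM or more in control and changes larger than 2-fold. The simulated intervals were centred on their values, unlike many deposited ones. It thus does not cover changes near 2-fold or genes at lower levels. Isozyme shares are percentages of a family's summed FPKM within a library. Analyses used Python 3.11.15 and pandas 2.3.3.

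All 38 genes are accounted for. From each other pathway list the text names called genes, the 2 most abundant and the 2 with the largest difference, and from each marker list the 2 with the highest mean FPKM. One oligodendrocyte marker is not reported here and is left out of that list. Gfap, Pfkfb4, Pdk3, Eno1b, Ckm, Myh4, Tnnt1, Tnnt3, Casq1, Atp2a1, Gyg, Hba-a2 and the Pgm2 entry were named after their values were seen or as isozymes. The genes and lists were chosen with earlier results of these data known. Alternatives were other pseudocounts, minimum FPKM, scalings, a lower fold, no interval rule, summed entries and interval midpoints.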

Additional observations from a re-analysis of the deposited data

How the results depend on the processing

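Pygm was higher by the 2-fold rule in every setting tried except scaling to the same sum (0.97), and the count of higher genes in the list was 0 there, 2 with a pseudocount of 0.1 and 10 at 1.5-fold, against 1. The count of lower genes was 1 (Slc16a7) with a pseudocount of 0.1, after scaling to the same sum and at 1.5-fold, against 0. The median of the list was 0.013 after scaling to the same sum and 0.24 after centring on the median. Over all tested genes, 638 were lower and 669 higher; with a pseudocount of 0.1, 1156 were higher; with a pseudocount of 5, 339 were lower and 282 higher; after scaling to the same sum, 996 were lower and 199 higher; after centring on the median, 761 were lower and 439 higher; at 1.5-fold, 1253 were lower and 2262 higher. No sign of a list gene changed with interval midpoints, while 2 changed with equal upper quartiles, 3 after centring and 10 after scaling to the same sum. A pseudocount or a minimum FPKM cannot change a sign, and no list gene had several entries to sum. Those settings therefore say nothing about the signs. No paired analysis was possible because each group has 1 library. Unknown read numbers limit what can be said of genes under about 5 FPKM.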
